A study of Mus musculus with 21 samples.

Results

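The 37 genes described here encode the subunits of the 26S proteasome, the protease complex that degrades ubiquitin-tagged proteins. They were chosen by name as the protein-coding genes Psma1 to Psma7, Psmb1 to Psmb10, Psmc1 to Psmc6 and Psmd1 to Psmd14, without pseudogenes, and by a minimum of 10 counts in 11 or more of the 21 libraries. All 37 named genes passed this minimum, each with at least 10 counts in 21 of 21 libraries, out of 55487 genes in the table. Of these, 17 belong to the core particle (7 in the alpha ring and 10 of the beta ring) and 20 to the regulatory particle (6 ATPases and 14 other subunits). The rule uses no measured difference, but the members were chosen with earlier results of these data known.

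Hippocampal poly-A RNA of male wild-type C57BL/6 mice was measured by bulk sequencing at 10 weeks of age, with 1 library per mouse. In the maternal separation group (MS, 9 libraries), whole nests were taken from the dam for 4 hours a day from postnatal day 10 to 17, and part of the nesting material was removed from their home cages. In the standard rearing group (SR, 12 libraries), nests stayed with the dam, and litters of both groups had been balanced over dams. Mice are named here by runs of 3 animal numbers, called sets, with sets A to C in MS and sets D to G in SR; sets C and G lie in a higher range of animal numbers than the others. Litters held 3 males and males were caged in groups of 3 littermates, so each set could be 1 nest, but the labels name no nest and this was not given for any mouse. P-values measure the spread between these mice, which may share nests.

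Counts per library totalled 17276810 to 30449055. MS mouse A2 stood apart from the other 20 libraries, with a score of 27.07 on the first principal component against -12.18 to 11.91. Its library also held less of the dentate granule cell marker Dsp (0.692 CPM, counts per 1000000 of the library's normalized total, against 53.95 to 137.7 in the others) and more of the striatal marker Penk (417.8 CPM against 13.76 to 134.7). The study removed 1 outlier without naming it, and A2 was left out here, which leaves 8 MS and 12 SR mice; the counts, the medians and the member with the smallest p are also given with A2. Summed over each list, markers of neurons, pyramidal cells, dentate granule cells and glia were detected in all libraries, as were those of the choroid plexus, whose summed level ran from 51.6 over a median of 3271 to 4140 CPM in MS and from 27.6 over 825 to 4465 CPM in SR.

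The proteasome is a barrel, the core particle, capped by the regulatory particle. The core stacks rings of alpha subunits, which form the gate, around rings of beta subunits, and 3 beta subunits carry the proteolytic sites: Psmb6, Psmb7 and Psmb5. In immune cells and after interferon they are replaced by the immunosubunits Psmb9, Psmb10 and Psmb8, respectively. In the regulatory particle, the Psmc ATPases unfold the substrate and thread it into the gate, while Psmd subunits bind ubiquitin chains, remove them and form the scaffold of its base and lid; Psmd5, Psmd9 and Psmd10 are chaperones that help assemble the ATPase ring and are not part of the finished complex. Transcription of many subunit genes is known to be raised by Nfe2l1 through antioxidant response elements when proteasome capacity falls, and neurons depend on the complex for the turnover of synaptic proteins.

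The members were spread over 15 chromosomes of the mouse genome (GRCm38), with 6 of them on chromosome 11. The genes of the immunosubunits Psmb9 (chr17:34181987-34187764, minus strand) and Psmb8 (chr17:34197721-34201454, plus strand) lie 9956 bases apart. RefSeq promoter windows of build GRCm38.p6, from 250 bases before to 50 after the transcription start, were found for 31 of 37 members, in 33 windows. The letters TGACNNNGC, the core of the antioxidant response element, were searched on both strands and were found in 5 of the 33 windows (15.15%), those of Psmb5, Psmb6, Psmc6, Psmd9 and Psmd12, against 12.39% of 32851 windows of all genes. The letters CCAAT were in 12 windows (36.36% against 37.41%) and GAAA, any 2 bases and GAAA again, the core of the interferon-stimulated response element, in 3 (9.09% against 3.44%), those of Psmb3, Psmd4 and Psmd9, none of them an immunosubunit. Windows of 3 members described below are shown 5′ to 3′ on the strand of the gene. Those of the catalytic subunits Psmb5 (chr14:54617946-54618245, minus strand) and Psmb6 (chr11:70525107-70525406, plus strand) hold TGACNNNGC, here in capitals. The window of Psmd5 (chr2:34870913-34871212, minus strand), the member with the smallest p-value between MS and SR, does not.
Psmb5: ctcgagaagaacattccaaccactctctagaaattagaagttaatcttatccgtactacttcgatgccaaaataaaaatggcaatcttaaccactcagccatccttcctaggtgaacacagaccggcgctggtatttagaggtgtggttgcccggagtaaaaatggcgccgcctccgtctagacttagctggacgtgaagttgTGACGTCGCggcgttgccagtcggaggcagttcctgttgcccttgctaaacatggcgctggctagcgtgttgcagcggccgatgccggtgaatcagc
Psmb6: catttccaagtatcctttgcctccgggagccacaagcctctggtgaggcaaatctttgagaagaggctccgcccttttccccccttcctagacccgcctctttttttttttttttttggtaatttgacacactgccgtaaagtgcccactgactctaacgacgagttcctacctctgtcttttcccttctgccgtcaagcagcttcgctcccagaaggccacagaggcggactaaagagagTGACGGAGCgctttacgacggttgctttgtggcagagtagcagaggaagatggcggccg
Psmd5: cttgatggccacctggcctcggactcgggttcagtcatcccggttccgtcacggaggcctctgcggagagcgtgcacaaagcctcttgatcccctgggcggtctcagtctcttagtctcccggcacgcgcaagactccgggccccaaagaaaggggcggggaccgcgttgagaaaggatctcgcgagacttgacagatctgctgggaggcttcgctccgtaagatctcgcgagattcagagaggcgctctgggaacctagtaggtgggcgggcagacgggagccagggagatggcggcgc

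First, the level of each subunit was described in SR mice. Compared per length, as CPM per kb of annotated exons, the order ran from the ATPase Psmc5, at 80.1 ± 2.45 (SD, n = 12), over the ATPase Psmc1 at 67.1 ± 2.34, the catalytic subunit Psmb5 at 55.5 ± 4.60 and the ATPase Psmc3 at 51.3 ± 2.10, down to the assembly chaperones Psmd10 at 7.03 ± 0.565, Psmd5 at 6.71 ± 0.275 and Psmd9 at 3.55 ± 0.196. The immunosubunits came lowest apart from Psmb10: Psmb8 stood at 0.435 ± 0.0684 and Psmb9 at 0.254 ± 0.0683 CPM per kb, whereas Psmb10, the third of them, stood at 10.5 ± 1.24, next to the structural subunit Psmd11 at 10.1 ± 0.432. The median over the 34 members that are not immunosubunits was 21.3 CPM per kb, with 42.6 for the ATPases, 20.8 for the alpha ring, 25.4 for the constitutive beta ring and 19.8 for the other regulatory subunits. Neighbours in this order mostly did not differ beyond their spread, since the ranges of the SR mice overlapped in 32 of 36 neighbouring pairs. The exceptions were Psmc5 over Psmc1, Psmd11 over Psmd10, Psmd5 over Psmd9 and Psmd9 over Psmb8.

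**Figure D1:**
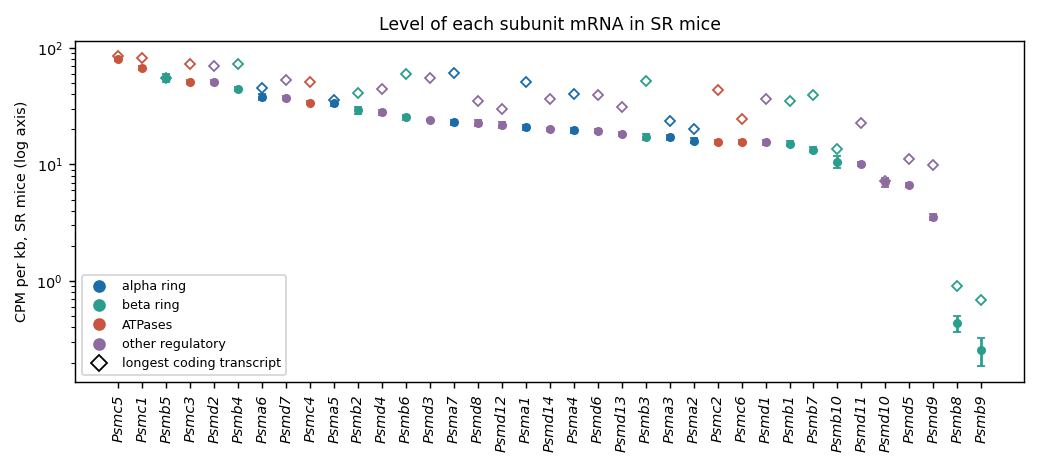
Level of each subunit mRNA in the 12 SR mice, in CPM per kb on a log axis. Filled circles with bars are the mean and SD per kb of all annotated exons and open diamonds the mean per kb of the longest coding transcript; Psmc5 and Psmc1 come first by either length, and Psmb8 and Psmb9 lie below 1.

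With the length of the longest coding transcript in place of all annotated exons, the rank correlation of the 2 orders over 37 genes was 0.856. Psmc5 and Psmc1 kept ranks 1 and 2 and Psmb8 and Psmb9 ranks 36 and 37, while Psmb5 moved from rank 3 to 9. Counts of some members share sequence with other genes: Psmd11 has a copy, A730017L22Rik, at 97.9% identity over 1501 bases whose median count was 274 against 1405, and exons of Psmb9 overlap those of Tap1 on the opposite strand over 212 bases, where the median count was 20 for Psmb9 and 71 for Tap1. Exons on opposite strands also overlap between Psmb7 and Nek6 (405 bases), Psmd13 and Sirt3 (342), Psmb8 and Gm20496 (498), Psmd9 and Gm26745 (1849), Psmc3 and Slc39a13 (215), Psmd1 and Htr2b (252), Psma4 and AY074887 (114), Psma5 and 1700010K24Rik (60) and Psmd3 and Gm12356 (17). The strand setting of the counting is not given in the sources used here, so the values of all these members are less certain.

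Subunit mRNAs varied little between control mice. The coefficient of variation over the 12 SR mice had a median of 4.64% over the members, against 11.0% over all 18146 genes tested, and ran from 2.51% for Psmd3, a scaffold of the lid, to 26.9% for Psmb9. The 3 immunosubunits had the highest coefficients, and 2 of them, Psmb8 (15.7%) and Psmb9, have the fewest counts of the members. The genes were not matched by level, so the comparison cannot separate the members from other genes of like level.

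The main comparison asked whether subunit mRNA differed between MS and SR mice. No subunit passed the test: 0 of 37 members were called by edgeR's quasi-likelihood test at an adjusted p under 0.05 over 18146 genes, where 2 genes (0.011%) were called, and the members' adjusted p-values ran from 0.232 to 0.997. With limma-voom, 0 of 37 members were called, and 0 of 18146 genes. DESeq2 also called 0 members, but it gave Psmb8 and Psmb9 no adjusted p. Over the 14056 genes with an adjusted p, DESeq2 called 83 higher and 44 lower. At an unadjusted p under 0.05, 5 members were higher in MS (6.62% of all genes tested were) and 0 were lower (4.92% of all genes). The sign was mostly the same, with a log2 fold change above 0 in 31 of 37 members, against 50.3% of all genes, and a median of 0.053, against 0.0008 over all genes. Markers of cell types were described in the same way. Of 5 neuronal markers 0 were higher in MS, with a median log2 fold change of -0.08 and 2 at an unadjusted p under 0.05. All 5 choroid plexus markers (median 0.92) and all 5 striatal markers (median 0.48) were higher, with 0 at that level. The median was -0.09 for dentate granule cells (1 of 5 higher) and -0.05 for pyramidal cells (1 of 5). It was 0.07 for microglia (5 of 8, 1 at that level) and 0.03 for endothelium (3 of 5). Astrocytes had 0.02 (3 of 5) and oligodendrocytes 0.01 (4 of 5). The part of these cell types in the members' values was not tested.

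The differences were small. Log2 fold changes lay between -0.03 (Psmd11) and 0.20 (Psmb5), and 30 of 37 were within 0.1 of zero. The 95% interval of the difference lay within a 1.3-fold change in either direction for 35 of 37 members, the exceptions being Psmb8 and Psmb9, which have the fewest counts. The values of MS and SR mice overlapped for every member, so 0 of 37 had ranges apart, against 0.011% of all genes.

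**Figure D2:**
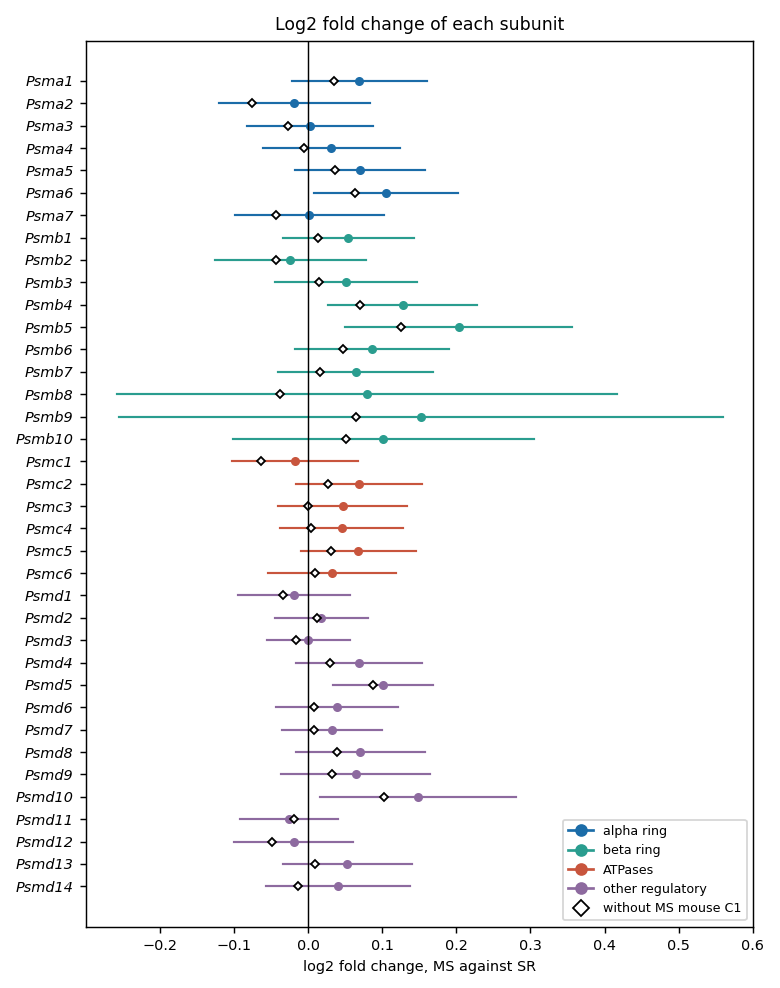
Log2 fold change of MS against SR for each of the 37 subunits. Circles with lines are the estimate and 95% interval from 8 MS and 12 SR mice, coloured by the part of the complex, and open diamonds the estimate without MS mouse C1; most circles lie right of 0 by less than 0.1, and most diamonds lie closer to 0 or left of it.

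In the core particle, 15 of 17 members had a log2 fold change above 0, with a median of 0.07, and 3 had an unadjusted p under 0.05. In the regulatory particle these numbers were 16 of 20, 0.04 and 2. The 20 were grouped by name and include the assembly chaperones Psmd5, Psmd9 and Psmd10, which are not part of the finished complex. Both regulatory members with an unadjusted p under 0.05 were such chaperones, Psmd5 and Psmd10. By position in the complex, the median was 0.03 in the alpha ring, 0.08 in the beta ring, 0.05 among the ATPases and 0.04 among the other regulatory subunits. Taken per mouse and relative to SR, the mean log2 CPM of the core members minus that of the regulatory members was 0.02 ± 0.08 (SD, n = 8) in MS mice, with an SD of 0.05 over the 12 SR mice around a mean of zero by construction, so the shift of the core relative to the regulatory particle was smaller than the spread between mice.

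Among the constitutive catalytic subunits, Psmb5, which cuts after hydrophobic residues, had the highest fold change of all members. Its level ran from 46.3 CPM (lowest) over 56.1 (median) to 78.2 (highest) in MS and from 43.1 over 50.1 to 57.0 in SR. The groups overlapped, with 2 of 8 MS mice, A3 and C1, above the highest SR mouse. Psmb5 differed by 0.20 ± 0.07 on the log2 scale (SE; 95% interval 0.05 to 0.36), with p = 0.0114 and an adjusted p of 0.289 in edgeR.

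Psmb6, which cuts after acidic residues, ran from 44.9 over 48.4 to 59.9 CPM in MS and from 42.4 over 48.1 to 50.5 in SR. Its difference was 0.09 ± 0.05 (adjusted p = 0.532). Psmb7, which cuts after basic residues, ran from 39.7 over 47.4 to 59.0 CPM in MS and from 42.6 over 45.8 to 50.5 in SR. The lowest and the highest value of Psmb7 were both in MS mice (A1 and C1), and its difference was 0.06 ± 0.05 (adjusted p = 0.667).

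The immunosubunits were measured with the widest error. Psmb8 ran from 0.767 over 1.57 to 2.38 CPM in MS and from 1.12 over 1.45 to 1.86 in SR, with a difference of 0.08 ± 0.16 (95% interval -0.26 to 0.42, adjusted p = 0.90). For Psmb9, the values were 0.681, 0.827 and 1.46 CPM in MS and 0.611, 0.957 and 1.32 in SR, a difference of 0.15 ± 0.20 (95% interval -0.26 to 0.56, adjusted p = 0.818). In both genes the ranges overlapped, and for Psmb8 the lowest and the highest value were both in MS mice, C3 and C1. Psmb10 ran from 12.2 over 19.7 to 23.8 CPM in MS and from 14.9 over 17.6 to 22.7 in SR, a difference of 0.10 ± 0.10 (adjusted p = 0.737).

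Each immunosubunit was then set against the constitutive subunit it replaces, as a log2 ratio of CPM within each mouse. In this ratio the scaling of the library cancels except through the prior count of 2. That prior count weighs most on Psmb8 and Psmb9, which have the fewest counts. The log2 ratio of Psmb8 to Psmb5 was -5.19 ± 0.35 (SD, n = 8) in MS and -5.01 ± 0.28 (n = 12) in SR, a difference of -0.18 ± 0.15 (SE; two-sided exact permutation p = 0.221, adjusted over the 3 pairs 0.663). The ratio of Psmb9 to Psmb6 was -5.55 ± 0.34 and -5.58 ± 0.36, a difference of 0.03 ± 0.16 (exact permutation p = 0.837, adjusted 0.857). The ratio of Psmb10 to Psmb7 was -1.34 ± 0.33 and -1.36 ± 0.20, a difference of 0.02 ± 0.13 (exact permutation p = 0.857, adjusted 0.857). None of the 3 pairs differed by more than the spread between mice, and the sign of the last 2 turned when single mice were left out. The difference for Psmb8 to Psmb5 ran from -0.26 without A1 to -0.10 without C3, and was -0.11 with A2.

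**Figure D3:**
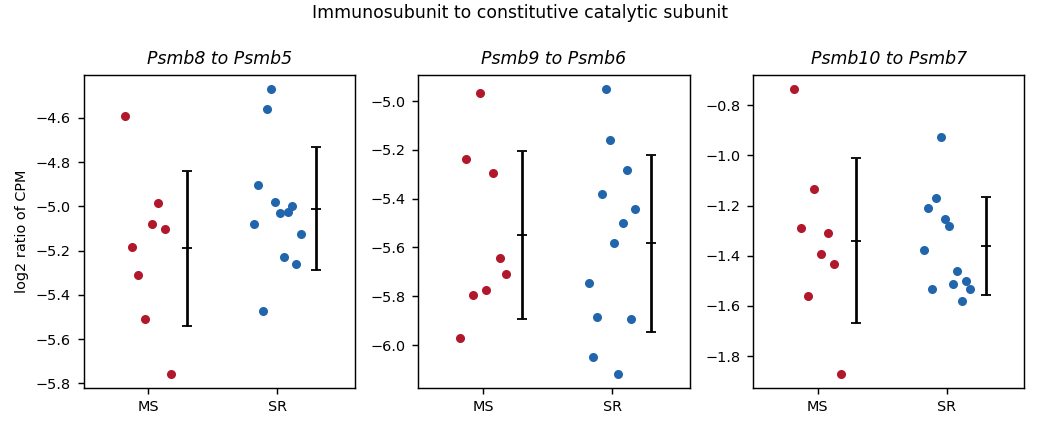
Log2 ratio of CPM of each immunosubunit to the constitutive catalytic subunit it replaces, 1 point per mouse, with 8 MS mice and 12 SR mice. Black bars are the mean and SD of each group; the groups overlap for all 3 pairs, with differences of -0.18, 0.03 and 0.02.

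The other members with the smallest p-values were Psmd5, Psmb4, Psmd10 and Psma6. Psmd5, an assembly chaperone of the ATPase ring, ran from 48.8 over 51.8 to 55.4 CPM in MS and from 44.2 over 48.3 to 51.1 in SR, and 5 of 8 MS mice were above the highest SR mouse. It differed by 0.10 ± 0.03 (p = 0.00524, adjusted p = 0.232 in edgeR). Psmb4, a beta subunit without a proteolytic site, ran from 84.3 over 93.1 to 120.6 CPM in MS and from 80.3 over 86.6 to 92.2 in SR, again with 5 of 8 MS mice above the highest SR mouse, and differed by 0.13 ± 0.05 (p = 0.0151, adjusted p = 0.315).

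Psmd10, also known as gankyrin, is another chaperone of the ATPase ring. It ran from 10.1 over 11.1 to 13.9 CPM in MS and from 8.98 over 10.4 to 11.8 in SR, a difference of 0.15 ± 0.06 (p = 0.0291, adjusted p = 0.371). Psma6, a subunit of the alpha ring, ran from 45.8 over 49.4 to 60.6 CPM in MS and from 43.8 over 46.6 to 52.9 in SR, a difference of 0.11 ± 0.05 (p = 0.0360, adjusted p = 0.393). C1 was the MS mouse with the highest value in each of these 4 genes. The chaperones Psmd5 and Psmd10 were named here for their small p-values, so those values cannot show a pattern of the chaperones. The third chaperone, Psmd9, had a log2 fold change of 0.06 (adjusted p = 0.647).

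At the other end, the lowest log2 fold change in each part of the complex was close to zero. Psma2 of the alpha ring ran from 51.3 over 56.1 to 73.6 CPM in MS and from 54.5 over 59.3 to 62.3 in SR (-0.02 ± 0.05, adjusted p = 0.924). Psmb2 of the beta ring ran from 31.0 over 35.0 to 37.7 CPM in MS and from 29.8 over 35.6 to 39.5 in SR (-0.02 ± 0.05, adjusted p = 0.90). The MS values of Psmb2 lay within its SR range, whereas in Psma2 C1 stood above all other mice.

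Of the ATPases, Psmc1 had the lowest and Psmc2 the highest fold change. Psmc1 ran from 114.8 over 125.5 to 155.9 CPM in MS and from 122.0 over 129.3 to 137.8 in SR (-0.02 ± 0.04, adjusted p = 0.912). Psmc2 ran from 72.0 over 81.3 to 98.3 CPM in MS and from 71.7 over 78.8 to 81.9 in SR (0.07 ± 0.04, adjusted p = 0.545). Psmc5, the most abundant subunit mRNA per length, ran from 109.4 over 113.0 to 137.7 CPM in MS and from 105.2 over 112.2 to 116.6 in SR (0.07 ± 0.04, adjusted p = 0.502).

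Psmd11, a scaffold of the lid, had the lowest log2 fold change of all members. It ran from 59.5 over 63.3 to 67.2 CPM in MS and from 59.8 over 65.4 to 69.3 in SR (-0.03 ± 0.03, adjusted p = 0.813), and no MS mouse was above the highest SR mouse. The remaining 21 members had log2 fold changes between -0.02 and 0.07, with adjusted p-values from 0.539 to 0.997.

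The per-mouse values showed that a single MS mouse stood out. C1 had the highest value of the 8 MS mice in 33 of 37 members and of all 20 mice in 32, whereas it was the highest MS mouse in 20.1% and the highest of all mice in 14.5% of the 18146 genes tested. All 17 core members and 19 of 20 regulatory members were above the SR mean in C1, Psmd11 being the exception. The 4 members whose highest MS value was in another mouse were Psmb9, Psmb10, Psmd2 and Psmd11.

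**Figure D4:**
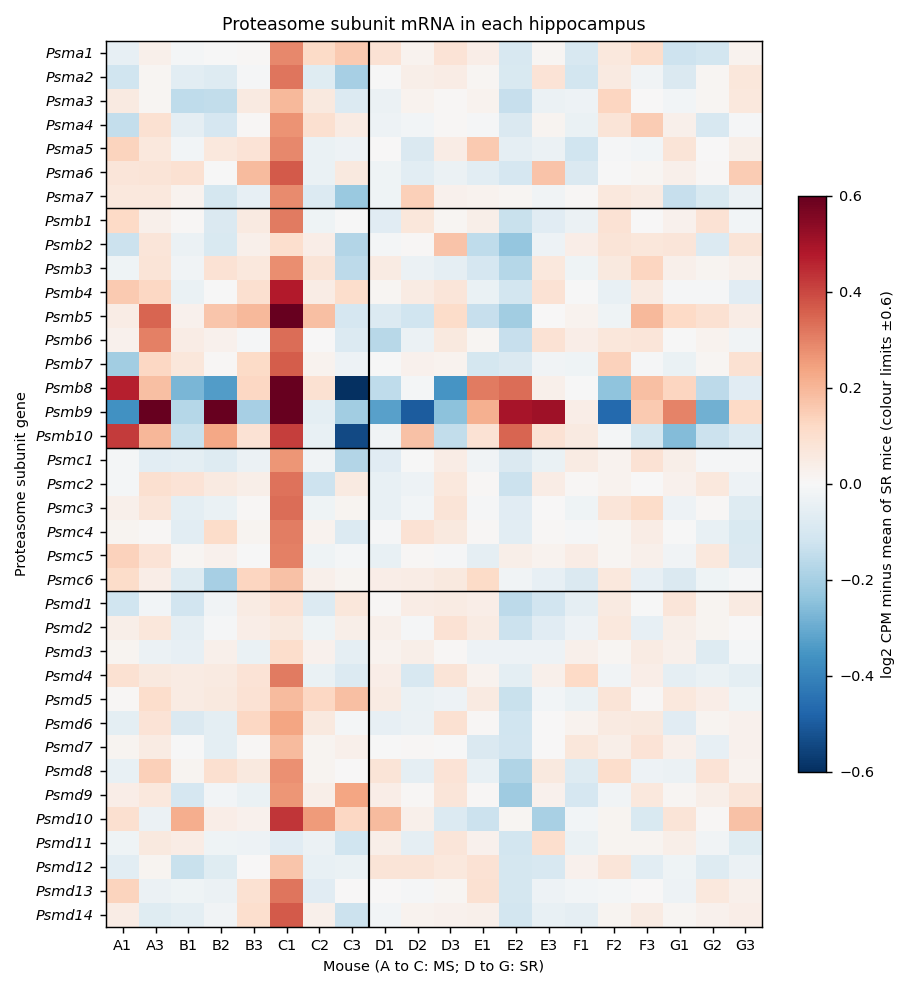
Log2 CPM of each subunit in each mouse minus the mean of the 12 SR mice, with colour limits of 0.6 either way. Rows are the alpha ring, beta ring, ATPases and other regulatory subunits from top to bottom, columns the 8 MS mice and then the 12 SR mice; the column of C1 is above the SR mean in 36 of 37 members, and Psmb8 to Psmb10 vary most.

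A score per mouse was taken as the mean log2 CPM over the members of a particle minus the SR mean. For the core particle, C1 scored 0.37, while the other 7 MS mice lay between -0.14 (C3) and 0.14 (A3) and the 12 SR mice between -0.05 and 0.06. For the regulatory particle, C1 scored 0.23, while the other MS mice lay between -0.02 and 0.04 and the SR mice between -0.09 (E2) and 0.04. The core score had an SD of 0.15 over the 8 MS mice and 0.03 over the SR mice, and the regulatory score had SDs of 0.08 and 0.03. Without C1, the SD of the MS mice was 0.09 for the core and 0.02 for the regulatory score, with means of 0.01 for both.

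**Figure D5:**
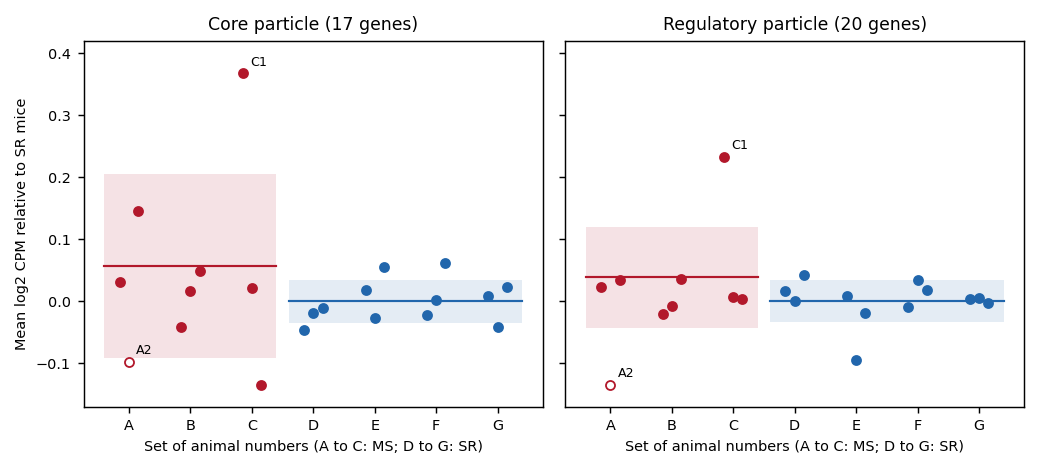
Mean log2 CPM of the 17 core members (left) and 20 regulatory members (right) per mouse, relative to the SR mean, by set of animal numbers. Lines and bands are the mean and SD of the 8 MS and 12 SR mice; C1 lies above all others in both panels at 0.37 and 0.23, and A2 (open circle) was left out of the means.

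The 3 mice of set C spread the widest in the core score, with C1 the highest and C3 the lowest of the 20 mice and C2 at 0.02. In C3, the core score was -0.14 while the regulatory score was 0.00, so that core and regulatory particle differed by -0.14, the lowest of the 20 mice. The widest difference in the other direction was 0.13 in C1, and SR mice lay between -0.06 and 0.07. The SD of this difference was 0.08 in MS and 0.05 in SR.

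The core and the regulatory scores went together over the 20 mice, with r = 0.80, but with r = 0.29 without C1. Within conditions, pairs of core members had a median correlation of 0.50, pairs of regulatory members 0.49 and mixed pairs 0.47, against -0.003 between members and all other genes. Without C1 these medians were 0.22, 0.22 and 0.19. Correlations of this kind share the libraries and their scaling, and are given as a description. The constitutive catalytic subunits had a median pairwise correlation of 0.69 (0.44 without C1) and the immunosubunits one of 0.39 (0.28 without C1). Psmc3, a subunit of the ATPase ring, had the highest mean correlation with the other members (0.60, or 0.30 without C1) and Psmd11 the lowest (0.07, or 0.24 without C1).

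C1 also differed from the other mice in measures outside the proteasome. The rank correlation of log2 CPM with exonic length over all genes was 0.453 in C1, the lowest of the 20 mice, against 0.476 to 0.494 in SR. The summed level of 5 neuronal markers was 4170 CPM in C1, below the 4438 to 5034 CPM of SR mice. The sums of 8 microglial markers (272 CPM against 195 to 237), 5 astrocyte markers (1384 against 1162 to 1286) and 5 oligodendrocyte markers (7106 against 4446 to 6770) were above the SR range. The sums of the other lists lay within it. C1 had 599 CPM for pyramidal cells (322 to 821 in SR) and 428 for dentate granule cells (239.5 to 483). It had 210 CPM for endothelium (159 to 239), 917 for choroid plexus (27.6 to 4465) and 90.1 for striatum (66.8 to 296). Over the 20 mice, r with this length correlation was -0.87 for the core score (-0.69 without C1) and -0.75 for the regulatory score (-0.31 without C1). With the length correlation as a term in the fit of all genes, the median was 0.03 for the core and 0.01 for the regulatory particle, and 3 members, Psmb4, Psmb5 and Psmd5, were higher in MS at an unadjusted p under 0.05 (7.31% of all genes were). The part of cell composition and of RNA quality in the proteasome values was not tested, and in tissue RNA fewer cells of a type and less RNA per cell cannot be told apart.

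Without C1, the sign shared by the members was less frequent. The log2 fold change was above 0 in 25 of 37 members (50.2% of all genes), with medians of 0.02 for the core and 0.01 for the regulatory particle, and 0 members were called. Of the 5 members with an unadjusted p under 0.05, 3 were higher in MS (6.14% of all genes were), namely Psmb4, Psmb5 and Psmd5, and 2 were lower (4.75% of all genes), namely Psma2 and Psmc1. Psmd5 kept the smallest p, with a log2 fold change of 0.09 ± 0.03 (p = 0.0126, adjusted p = 0.342 in edgeR), and Psmb5 had one of 0.13 ± 0.06 (adjusted p = 0.436). Psmd10 was no longer among the 5, with 0.10 ± 0.06 (p = 0.0977, adjusted p = 0.552 in edgeR). Psma2, at -0.08 ± 0.03 (adjusted p = 0.438), and Psmc1, at -0.06 ± 0.03 (adjusted p = 0.433), were the members lower in MS. The log2 fold changes of other members named above were also more than 1.5 times smaller without C1: Psmb4 had 0.07, Psma6 0.06, Psmb6 0.05, Psmb7 0.02, Psmb9 0.06, Psmb10 0.05, Psmc2 0.03, Psmc5 0.03 and Psmd9 0.03, and Psmb8 had -0.04.

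With A2 included, the medians were 0.04 for the core and 0.02 for the regulatory particle, and 2 members, Psmc5 and Psmd10, were higher in MS at an unadjusted p under 0.05 (6.83% of all genes were). Psmd5 had a log2 fold change of 0.06 ± 0.04 with A2 (adjusted p = 0.608 in edgeR), against 0.10 without it. A2 scored -0.10 on the core and -0.13 on the regulatory particle, below every SR mouse on both, and lay below the lowest SR mouse in 20 members and above the highest in 1, the ATPase Psmc5. Its striatal marker sum was 1389 CPM against 66.8 to 296 in SR.

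Animal numbers fall in a low range (sets A, B, D, E and F) and a high range (sets C and G), each with mice of both conditions, so the difference between MS and SR was compared between ranges. In the low range, 23 of 37 members were higher in MS, with medians of 0.04 for the core and 0.003 for the regulatory particle. In the high range, 34 of 37 were higher, with medians of 0.10 and 0.08. The difference between ranges was not called for any member by edgeR (0 of 37, and 0% of all genes), with a smallest adjusted p of 0.357. In simulated data this test recovered 3 of 100 genes changed 1.3-fold, so differences of that size could be missed. The difference between ranges was above 0 in 31 of 37 members (51.1% of all genes). An unadjusted p under 0.05 was found for 2 members (8.67% of all genes), the alpha subunits Psma1 and Psma4.

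Psma1 had log2 fold changes of -0.03 in the low and 0.26 in the high range, a difference of 0.29 ± 0.08 (p = 0.000884, adjusted p = 0.357), and Psma4 had -0.05 and 0.16, a difference of 0.21 ± 0.09 (p = 0.0239). The high range holds 3 MS mice, C1 among them. Without C1 the difference between ranges was above 0 in 14 of 37 members (50.3% of all genes), and 1 member had an unadjusted p under 0.05 (9.97% of all genes), Psma1, with a difference of 0.24 ± 0.07 (adjusted p = 0.394).

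Sets of animal numbers within conditions were also compared. The sets were formed here from runs of animal numbers, and the labels give no nest or other origin of the mice. No member was called between sets by edgeR's F test (0 of 37, with a smallest adjusted p of 0.506, against 6 genes or 0.0331% of all genes), and 1 member, Psma1, had an unadjusted p under 0.05 (9.09% of all genes). In simulated data this F test recovered 36 of 100 genes changed 1.3-fold.

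Genes that work with the proteasome were described as a list of 33, of which 31 were tested; the tissue-specific subunits Psma8 and Psmb11 had median counts of 2 and 5 and were not. None of the 31 was called by edgeR, 22 had a log2 fold change above 0 (71.0%, against 50.3% of all genes), with a median of 0.02, and at an unadjusted p under 0.05 there were 5 higher (6.62% of all genes were) and 1 lower in MS (4.92% of all genes). All 5 assembly chaperones of the core particle (Psmg1 to Psmg4 and Pomp) had a log2 fold change above 0, with a median of 0.17, and 2 of them an unadjusted p under 0.05. The 4 regulators of proteasome gene transcription, Nfe2l1, Nfe2l2, Ddi2 and Ngly1, had log2 fold changes of 0.02 to 0.06, and the smallest of their adjusted p-values was 0.782.

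Sem1, a small subunit of the lid whose name does not begin with Psm, had the smallest p of this list. It ran from 11.2 over 13.7 to 16.0 CPM in MS and from 8.81 over 11.0 to 13.1 in SR, a difference of 0.34 ± 0.08 (adjusted p = 0.111 in edgeR). This difference was larger than that of any of the 37 members, and it passed the threshold in 5 of 38 alternatives, with adjusted p-values from 0.0134 to 0.937 over all of them. DESeq2 gave 0.0134, and the other settings in which Sem1 passed were the low range alone and the fits without C2, without C3 or without set C. Those settings also called more genes over all than the main fit, which called 2 higher and 0 lower. DESeq2 called 83 genes higher and 44 lower, and the low range alone 159 and 71. The numbers were 52 and 57 without C2, 96 and 13 without C3, and 211 and 129 without set C.

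Psmg1, which dimerises with Psmg2 to build the alpha ring, ran from 9.42 over 10.4 to 13.4 CPM in MS and from 7.30 over 9.08 to 9.71 in SR (0.28 ± 0.08, adjusted p = 0.161; range over alternatives 0.0476 to 0.937). Rps27a, which encodes ubiquitin fused to a ribosomal protein, ran from 65.4 over 83.5 to 98.9 CPM in MS and from 62.6 over 73.0 to 79.4 in SR (0.21 ± 0.06, adjusted p = 0.185; range 0.0295 to 0.937). Psme2, a subunit of the interferon-induced PA28 activator, ran from 11.9 over 13.8 to 16.8 CPM in MS and from 9.54 over 11.8 to 13.4 in SR (0.23 ± 0.07, adjusted p = 0.189; range 0.0610 to 0.937). Psmg1 passed the threshold with DESeq2, and Rps27a passed it without C3 (0.0320) and without set C (0.0295). These settings are among those given above that called more genes over all than the main fit. The groups overlapped in all 4 genes. Without C1, their log2 fold changes were 0.33 (Sem1), 0.23 (Psmg1), 0.17 (Rps27a) and 0.19 (Psme2), with adjusted p-values of 0.167 to 0.297.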

How the data were processed

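Hippocampal RNA of 21 male mice, selected for poly-A tails, was sequenced on a NovaSeq6000 in the study. STAR 2.7.3a was used by the authors for alignment to GRCm38; they counted reads per gene with featureCounts, and they deposited raw counts, not normalized. Groups were taken from the rearing condition in the labels. Symbols, positions and exonic lengths are those of GENCODE M21.

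For 8 MS and 12 SR mice, genes of low counts were removed with filterByExpr (minimum count 10), libraries were scaled by TMM and genes were tested with the quasi-likelihood test of edgeR 4.0.16 (robust; R 4.3.3), with Benjamini-Hochberg adjustment over 18146 genes and a threshold of 0.05. The standard error was derived as the ratio of the log2 fold change to the root of edgeR's F statistic, and log2 CPM used a prior count of 2. Catalytic ratios were tested by exact permutation over 125970 splits of the mice. DESeq2 1.42.0, limma 3.58.1 with the set as a random block, other filters and size factors, a length term, the ranges of animal numbers and the removal of each mouse and set were alternatives. In simulated data, edgeR's test of MS against SR recovered 48 of 100 genes changed 1.3-fold and 89 of 100 changed by a factor of 2. It also called 8 unchanged genes, with 17962 genes tested. The test between ranges recovered 3 and 53 of 100, and the test of sets 36 and 77 of 100. Near copies were sought with BLAST+ 2.17.0 (95% identity over at least 150 bases). No pair of libraries of the same group was alike within counting noise (lowest chi-square per degree of freedom 3.58). Pairs of an MS and an SR library were not compared.

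The members and lists were chosen with earlier results of these data known. Named in full were the 6 catalytic subunits, the members with the smallest p, the highest and lowest log2 fold change of each part of the complex, and the 4 associated genes with the smallest p; Psma1, Psma4 and the genes named for single facts were added after their values were seen.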

Additional observations from a re-analysis of the deposited data

Results flagged for a closer look

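In 10 members the highest MS value lay far from the other MS mice by Dixon's test for 8 values, and in each of them the mouse was C1. Chance alone marks about 1 in 20 groups when either end is counted. The members were correlated within conditions, so this rate does not apply to the 10 together. Among all genes tested, 471 of 18146 (2.6%) had C1 as the highest MS mouse past the same limit. The ATPases showed it most often: C1 stood at 155.9 CPM for Psmc1 (next MS mouse 128.5), 98.3 for Psmc2 (83.8), 168.5 for Psmc3 (140.4), 90.8 for Psmc4 (79.2) and 137.7 for Psmc5 (122.8). In the core, the values of C1 were 73.6 CPM for Psma2 (next 59.4) and 120.6 for Psmb4 (96.7). Among the other regulatory subunits, they were 97.7 CPM for Psmd4, the ubiquitin receptor (next 83.8), 95.7 for Psmd7 (86.8) and 73.2 for Psmd14, the deubiquitinase of the lid (60.8). The mean regulatory score of C1, 0.23 on the log2 scale, was marked in the same way, the next MS mouse being at 0.04.

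In MS mouse A2, whose library was left out of the comparisons, Psmc5 stood at 123.7 CPM, above the highest SR mouse at 116.6, while 20 other members lay below the lowest SR mouse.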

How the results depend on the processing

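The count of called members was 0 under all 38 alternatives run, and the smallest adjusted p of a member in any of them was 0.135. DESeq2 called 83 genes higher and 44 lower over 14056 genes and 0 members, with no adjusted p for Psmb8 and Psmb9. Over all genes, the calls ran from 0 higher and 0 lower, as in the high range alone, to 211 and 129 without set C. The count at an unadjusted p under 0.05 (5) was 2 with all 21 libraries, 3 without a filter on low counts, 2 in the low and 2 in the high range of animal numbers alone, 3 with the length trend as a term, 1 without set C, 3 without set F, and 4 to 8 with single mice left out, 8 being without MS mouse C3. Over all genes, 1202 of 18146 were higher in MS and 893 lower at that level in the main fit. These numbers were 1234 and 880 with all 21 libraries, 2120 and 1612 of 39023 without a filter, and 1326 and 1033 with the length trend. In the low range they were 1753 and 1306, in the high range 420 and 390, and without set F 923 and 781. Without set C they were 1807 and 1554 of 18561, and without C3 1313 and 1012 of 18280. The median of the regulatory particle (0.043) was 0.0027 in the low range, 0.083 in the high range, 0.0137 with the length trend as a term, 0.00375 without set C and 0.0088 (without C1) to 0.057 with single mice left out. For the core particle (0.069) it was 0.033 with the length trend as a term, 0.034 without set C and 0.016 (without C1) to 0.079 with single mice left out.

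Among the genes named with a fold change and the 3 ratios, signs turned in small differences that passed no threshold. Psma2 had 0.0400 and Psmc1 0.0319 in the high range, and Psmc1 had 0.00387 without set B; with single mice left out they ran from -0.0750 to 0.00322 and from -0.0635 to 0.00131. Psmb8 had -0.0570 with the length trend and -0.0195 without set A, and ran from -0.0379 to 0.174 over single mice. Psma4 had -0.00450 with all 21 libraries, -0.0459 in the low range, -0.00252 with the length trend, -0.0382 without set C and -0.00611 to 0.0512 over single mice. Psma1 had -0.0309 in the low range and -0.00766 without set C, and without set C Psmd11 had 0.00244 and Psmd9 -0.0111. The ratio of Psmb8 to Psmb5 kept its sign, from -0.264 to -0.0980 over single mice. The ratio of Psmb9 to Psmb6 was -0.00908 in the high range and -0.0498 to 0.0937 over single mice, and that of Psmb10 to Psmb7 was -0.0647 to 0.0973 over single mice. The cause of these changes was not tested. Counting error limits Psmb8 and Psmb9, whose counts are the lowest of the members. Groups share no animal numbers in the labels. No paired analysis was possible because the labels pair no mice.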
